A study of Danio rerio with 6 samples.

Results

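Heat shock proteins and other protein folding chaperones were examined in zebrafish embryos 48 h after fertilization, on 6 Affymetrix arrays. At the one-cell stage, 3 samples had been injected with setb MO1, a morpholino (a modified antisense oligonucleotide) against the transcript of setb, and 3 with a control morpholino. Phenotypes were graded normal-like, mild or moderate, but the labels give neither the grade of each RNA sample nor the strain. Each group rests on 1 morpholino, whose effect is transient. Whether replicates are separate clutches is not labelled, so the spread behind each p-value is that of these samples and could be technical. Members were all genes with a probe set of exactly 1 symbol whose symbol starts with hsp (not hspg), dnaj, cct and a digit, tcp1, pdia, calr, canx, fkbp, bag and a digit, hyou1 or sdf2. There were 104 such genes among 11304. The rule uses symbols and no measured value, though it was set with earlier results of these data known. By their names, 34 belong to the endoplasmic reticulum (ER), 20 are other J-domain proteins, 8 are subunits of the cytosolic chaperonin, 8 are mitochondrial and 8 are other FKBP immunophilins. The rest are 7 small heat shock proteins, 7 BAG proteins, 6 cytosolic members of the HSP70 family and 3 of the HSP90 family, and 3 genes without a class. Of these 3, hspbp1 encodes an exchange factor of HSP70, while tcp11l1 and tcp11l2 fit the letters of the rule but are not known as chaperones.

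Chaperones bind unfolded or partly folded proteins and let them fold, be carried or be degraded. HSP70 proteins work in cycles of ATP that are started by J-domain proteins and ended by exchange factors such as the BAG and HSP110 proteins. HSP90 acts later on a narrower set of clients, together with co-chaperones such as FKBP4 and FKBP5. The chaperonin TRiC, built of the products of tcp1 and the cct genes, folds actin and tubulin in a closed chamber. In the ER, BiP (hspa5), GRP94 (hsp90b1), the lectins calreticulin and calnexin and the protein disulfide isomerases fold secreted and membrane proteins. Heat and other damage to cytosolic proteins induce heat shock genes through the factor HSF1, whereas unfolded proteins in the ER act through separate sensors.

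Levels are log2 intensities of probe sets, and changes are log2 differences (setb MO1 minus control embryos) with a standard error (n = 3 and 3). A gene is said to rise or fall where the limma test gave a Benjamini-Hochberg adjusted p under 0.05 over all 11304 genes, of which 44.7% passed. The median difference over all genes was 0.02. Array medians lay between 9.47 and 9.49. Correlations between arrays over probe sets, which are not independent replicates, ran from 0.964 to 0.990 inside a group and from 0.884 to 0.930 across groups. Precision is limited by how few arrays there are. The targeted transcript was at 12.60 to 12.69 in setb MO1 and 12.38 to 12.51 in control embryos (0.19 ± 0.07, adjusted p = 0.0465, and 0.0415 to 0.133 without single arrays), so it was not lower. A morpholino that blocks translation need not lower its transcript, and how MO1 acts is not stated in the labels, so these levels do not check them. The samples are whole embryos, so fewer cells of a type and less RNA per cell cannot be told apart.

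Of the 104 members, 24 rose, 23 fell and 57 did not pass in setb MO1 embryos. Those that fell include tcp11l2 (−0.39 ± 0.08, adjusted p = 0.00748), which is not known as a chaperone. Over all genes 23.9% rose and 20.8% fell, so the shares among the members, 23.1% and 22.1%, were near the background. The median difference of the members was −0.03. Changes of at least 2-fold were found in 3 members upward, hsp90aa1.2, dnajb1b and hspb1, and in 3 downward, fkbp5, fkbp1ab and hspb6. The background of such changes was 1.06% of genes upward and 1.8% downward. Of these members dnajb1b reached 8.45, the lowest maximum of any deposited probe set, in setb MO1 embryos only. Among the 98 members that reached it in both groups, 2 rose and 3 fell by at least 2-fold. Without setb MO1 replicate 3 no member rose by 2-fold and 1, fkbp1ab, fell by it. Leaving out control replicate 1 left no 2-fold call downward, leaving out control replicate 2 or 3 left 1, and leaving out setb MO1 replicate 2 left 2. In all, 47 members were called (45.2%, against 44.7% of all genes). Their groups did not overlap, which a call with 3 arrays per group largely entails, so this adds nothing to the calls. Without overlap, 31 members were higher and 32 lower, against 30.6% and 27.4% of all genes. The plot of differences by class shows each member, and differences between classes were not tested. Of the chaperonin, mitochondrial and HSP90 classes no gene fell, and 5 of 8, 4 of 8 and 2 of 3 rose. Of the 34 ER members 12 fell and 3 rose, and of the 8 other FKBP genes 3 fell and none rose.

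**Figure D1:**
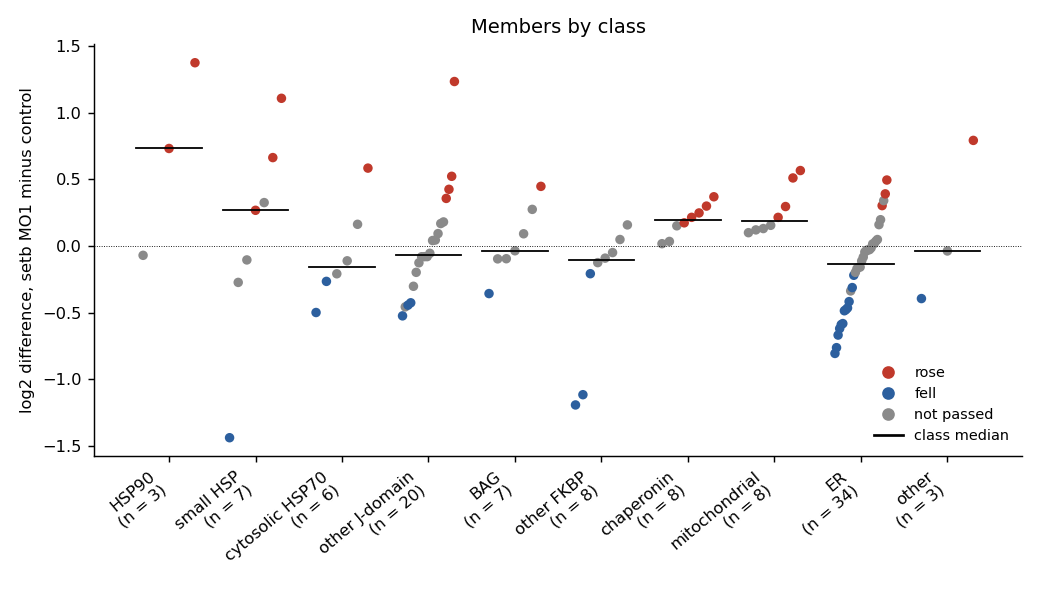
Log2 difference, setb MO1 minus control (vertical axis) for each of the 104 members, as points grouped by class (horizontal axis). Colours give the call at an adjusted p under 0.05 over all genes, and bars give class medians, which lay at 0.73 for HSP90, 0.19 for the chaperonin and −0.13 for the ER class.

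Inducible members of the HSP70, HSP90, J-domain and small heat shock families are described first. The probe sets of the classical inducible hsp70 genes could not be named singly, because 3 of them list several hsp70 genes at once. They are outside the members, and were looked up after their values had been seen. The first lists 4 hsp70 symbols and had log2 levels of 12.28, 12.27 and 13.24 in setb MO1 embryos, against 10.15, 9.87 and 10.21 in control embryos. The second lists 2 symbols and was at 7.87, 8.12 and 8.86 in setb MO1 embryos, against 6.38, 6.45 and 6.61 in control embryos. The third lists the same number and was at 12.35, 12.36 and 13.46 in setb MO1 embryos, against 9.83, 9.48 and 9.83 in control embryos. In all 3 sets every setb MO1 array lay above every control array, and setb MO1 replicate 3 was the highest. The fold changes were 5.75, 3.48 and 8.05, with limma p-values adjusted over all probe sets of 0.000412, 0.000972 and 0.000356. Without setb MO1 replicate 3 the folds were 4.61, 2.85 and 6.23. Inducible hsp70 copies are near-identical in zebrafish, so their signals cannot be told apart. The second set lay under 8.45, the lowest maximum of any deposited probe set, in every array but setb MO1 replicate 3. No filter is stated, so a cut at that level is inferred from this lowest maximum, here and below. By that cut the set entered the file through setb MO1 replicate 3 alone.

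Both inducible HSP90 genes rose (2 of 3 in the class, 66.7%, against 23.9% of all genes), and hsp90ab1, the constitutive form, did not pass. The gene hsp90aa1.2 (Entrez 565155) was at 9.98, 10.47 and 11.38 in setb MO1 embryos, against 8.83, 9.30 and 9.57 in control embryos. Its groups did not overlap, and it was 2.60-fold higher (1.38 ± 0.35, adjusted p = 0.0155), or 1.99-fold without setb MO1 replicate 3 (adjusted p = 0.0210). Its neighbour in the RefSeq gene order, hsp90aa1.1, folds muscle myosin in zebrafish and was at 11.44, 11.42 and 11.64 in setb MO1 embryos, against 10.57, 10.75 and 10.99 in control embryos. All setb MO1 arrays exceeded the control arrays, with a difference of 0.73 ± 0.12 (adjusted p = 0.00234). By contrast hsp90ab1 was at 13.23, 13.24 and 13.21 in setb MO1 and 13.28, 13.31 and 13.30 in control embryos, a difference of −0.07 ± 0.06 with a 95% interval of −0.20 to 0.06.

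Among J-domain proteins the largest change was that of dnajb1b, a heat-inducible partner of HSP70. Its log2 level was 8.81, 8.80 and 9.71 in setb MO1 embryos, against 7.69, 7.85 and 8.08 in control embryos. The groups did not overlap and setb MO1 replicate 3 was again the highest, with a 2.35-fold increase (1.24 ± 0.25, adjusted p = 0.00587) that was 1.91-fold without that array. All control values were under 8.45, so the file holds the gene through the setb MO1 arrays alone. Its paralogue dnajb1a did not pass, at 0.05 ± 0.07. The exchange factor gene hspbp1 rose by 0.79 ± 0.18 (adjusted p = 0.0107). Its setb MO1 levels of 8.56, 8.80 and 9.16 lay above its control levels of 8.32, 8.04 and 7.78, and it too reached 8.45 in setb MO1 embryos only.

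Small heat shock proteins, which hold unfolding proteins in solution, moved both ways. Of the 7 genes 3 rose (42.9%, against 23.9% of all genes) and 1 fell (14.3%, against 20.8%). The gene hspb1, encoding the counterpart of mammalian HSP27, was at 11.13, 11.36 and 11.96 in setb MO1 embryos, against 10.41, 10.25 and 10.46 in control embryos. The groups lay apart and the fold was 2.16 (1.11 ± 0.20, adjusted p = 0.00367), or 1.83 without setb MO1 replicate 3. The gene hspb8, whose product works with BAG3 in the removal of damaged proteins, was at 10.14, 10.22 and 10.37 in setb MO1 embryos, against 9.48, 9.68 and 9.58 in control embryos. It rose by 0.66 ± 0.09 (adjusted p = 0.00100), and bag3 itself rose by 0.45 ± 0.07 (adjusted p = 0.00218). The bag3 levels of 11.07, 11.14 and 11.06 in setb MO1 embryos exceeded the 10.61, 10.57 and 10.74 of control embryos. The heart and muscle gene hspb7 rose by 0.27 ± 0.06, but not without control replicate 2 (adjusted p = 0.0611).

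The one member of this class that fell, hspb6, is the counterpart of mammalian HSP20. Its levels were 9.34, 9.13 and 7.40 in setb MO1 embryos, against 10.51, 9.97 and 9.72 in control embryos. Replicate 3 was the lowest array in each group, and the groups did not overlap. The change was −1.44 ± 0.49 (2.71-fold lower, adjusted p = 0.0462), and −0.83 without setb MO1 replicate 3 (adjusted p = 0.0312). The call was lost without control replicate 1, 2 or 3 or setb MO1 replicate 2, with adjusted p-values of up to 0.105. The other members, hspb9l (0.33 ± 0.13), hspb9 (−0.10 ± 0.30) and hspb11 (−0.27 ± 0.14), did not pass, and hspb9 varied from 8.72 to 10.01 among the control arrays.

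**Figure D2:**
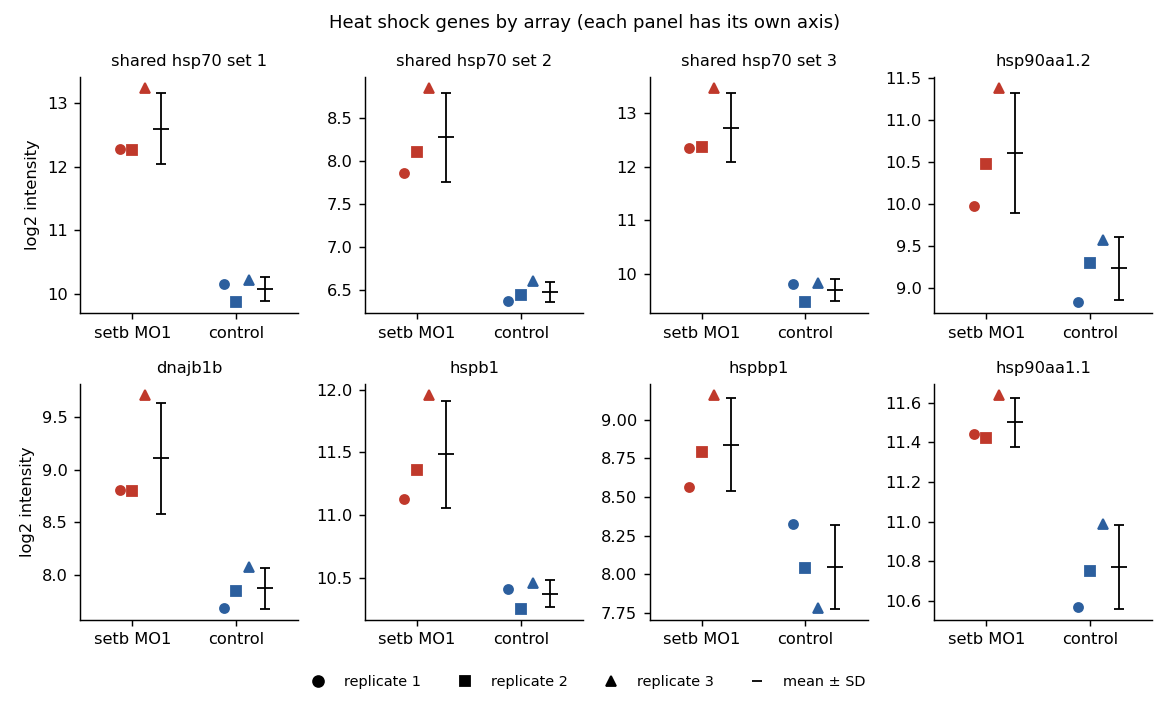
Log2 intensity (vertical axes, one scale per panel) in setb MO1 (left, red) and control arrays (right, blue) for the 3 probe sets shared by hsp70 genes and for hsp90aa1.2, dnajb1b, hspb1, hspbp1 and hsp90aa1.1. Marker shapes give the replicate and bars the mean ± SD (n = 3 per group). In every panel the setb MO1 arrays lie above the control arrays and setb MO1 replicate 3 is the highest. The members shown were taken from those that rose, and the hsp70 sets were looked up after their values had been seen.

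Of the 6 other cytosolic members of the HSP70 family 1 rose (16.7%) and 2 fell (33.3%), against 23.9% and 20.8% of all genes. The abundant hspa8, encoding the HSC70 of clathrin uncoating and general folding, was at 13.13, 13.20 and 13.21 in setb MO1 embryos, against 13.31, 13.31 and 13.25 in control embryos. The difference of −0.11 ± 0.06 did not pass (adjusted p = 0.178), and a dimmer second probe set of the gene gave 0.21 ± 0.08 (adjusted p over all probe sets = 0.0609), opposite in sign. Of the HSP110 genes, hspa4l fell by 0.50 on the log2 scale (−0.50 ± 0.09, adjusted p = 0.00330) while hspa4b was at 0.16 ± 0.06 and did not pass. The gene hspa14, whose mammalian counterpart sits at the ribosome, rose by 0.58 ± 0.09 (adjusted p = 0.00156). Its levels were 10.37, 10.31 and 10.37 in setb MO1 embryos, against 9.92, 9.75 and 9.63 in control embryos. The distant family member hspa12b, known from the endothelium, changed by −0.27 ± 0.08, and its call was lost without control replicate 3, setb MO1 replicate 2 or setb MO1 replicate 3 (adjusted p of up to 0.0791). Its setb MO1 values were all under 8.45, so the file holds it through the control arrays alone.

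The other J-domain genes are more varied in their known roles, and 4 of 20 rose (20.0%, against 23.9% of all genes) and 3 fell (15%, against 20.8%). Besides dnajb1b, the genes that rose were dnajc21, which acts in the maturation of the large ribosomal subunit (0.52 ± 0.14), dnajc24, of diphthamide synthesis (0.43 ± 0.12), and dnajc5gb (0.36 ± 0.08). The dnajc21 call was lost if control replicate 2, setb MO1 replicate 1 or setb MO1 replicate 2 was left out (adjusted p of up to 0.0688). The dnajc24 call was lost in every fit that left out 1 array except that without control replicate 1 (up to 0.0857). Of the J-domain class as few as 2 genes then rose, without control replicate 2 or setb MO1 replicate 1 or 2. The genes that fell were dnajc5aa, encoding a cysteine string protein of synaptic vesicles, dnajc6, encoding auxilin, which uncoats clathrin vesicles in neurons, and dnajc27.

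The levels of dnajc5aa were 10.45, 10.49 and 10.45 in setb MO1 embryos, against 10.92, 10.88 and 10.86 in control embryos, a change of −0.43 ± 0.06 (adjusted p = 0.00120). Those of dnajc6 were 8.36, 8.43 and 8.52 in setb MO1 embryos, against 8.94, 8.88 and 8.82 in control embryos (−0.44 ± 0.07, adjusted p = 0.00221). Both genes were lower in every setb MO1 array than in any control array. Neuronal markers moved with them, with 14 of 16 fallen (87.5%, against 20.8% of all genes), none risen and a median of −0.61. Of these 16, 5 reached 8.45 in control embryos only, so that the file holds them through the group where they are higher, and of the other 11, 9 fell. Their summed linear intensity was 20392 to 20945 in setb MO1 and 29733 to 31596 in control arrays, and their part in the decrease of dnajc5aa and dnajc6 was not tested. The gene dnajc27 changed by −0.52 ± 0.12 (adjusted p = 0.0104), with all setb MO1 values under 8.45. The general co-chaperones dnaja1 (−0.30 ± 0.16), dnaja2a (0.17 ± 0.09) and dnaja2b (−0.20 ± 0.07) did not pass.

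Of the BAG genes, which link HSP70 to degradation, survival and quality control, bag3 rose and bag6l fell (−0.36 ± 0.07, adjusted p = 0.00717). Each is 14.3% of the class, against 23.9% of all genes risen and 20.8% fallen. The other 5 of the 7 did not pass, among them bag2 (0.28 ± 0.10, adjusted p = 0.0553), bag1 (0.09 ± 0.07) and bag6 (−0.10 ± 0.08). The call on bag2 was gained without setb MO1 replicate 1 and under a block for replicate number (adjusted p = 0.0285), which raised the count of BAG genes that rose to 2.

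FKBP genes outside the ER fell or did not pass. Of the 8 genes 3 fell (37.5%, against 20.8% of all genes) and none rose (against 23.9%). The levels of fkbp1ab, one of a pair of genes for FKBP12, the immunophilin that binds ryanodine receptors and TGF-beta receptors, were 9.69, 9.79 and 9.56 in setb MO1 embryos, against 11.10, 10.82 and 10.47 in control embryos. The groups did not overlap, and the decrease was 2.17-fold (−1.12 ± 0.15, adjusted p = 0.00121). Its paralogue fkbp1aa changed by −0.21 ± 0.07 (adjusted p = 0.0437), and that call was lost in every fit without 1 array except that without control replicate 3 (adjusted p of 0.0295 to 0.149). The HSP90 co-chaperone gene fkbp5, a glucocorticoid target in mammals, was at 10.21, 10.21 and 8.59 in setb MO1 embryos, against 10.80, 10.92 and 10.87 in control embryos. All setb MO1 arrays were lower, and replicate 3 stood apart from the other two. The decrease was 2.29-fold (−1.19 ± 0.40, adjusted p = 0.0454) with all arrays and 1.57-fold without setb MO1 replicate 3 (−0.65, adjusted p = 0.00197), and the call was lost without control replicate 1, 2 or 3 (up to 0.118). Without control replicate 1 or 2, 1 of the 3 FKBP calls was left. The related fkbp4, of steroid receptor complexes, did not pass (−0.05 ± 0.11).

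**Figure D3:**
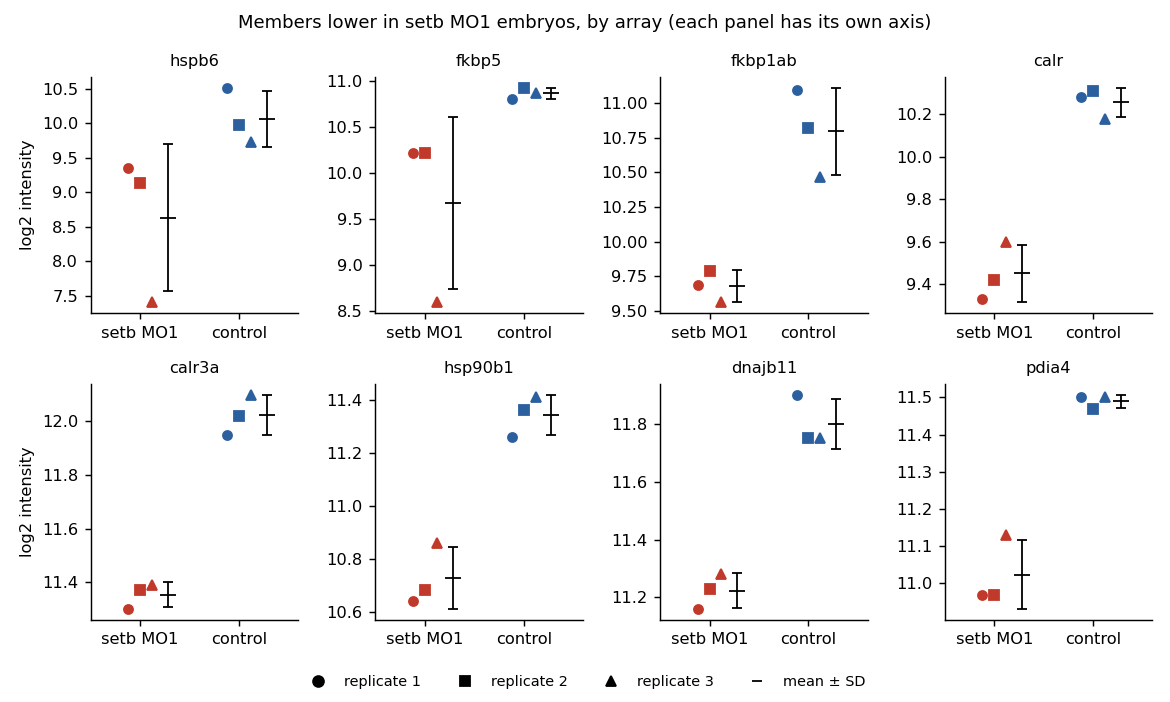
Log2 intensity (vertical axes, one scale per panel) in setb MO1 (left, red) and control arrays (right, blue) for 8 members that fell, hspb6, fkbp5, fkbp1ab, calr, calr3a, hsp90b1, dnajb11 and pdia4. Marker shapes give the replicate and bars the mean ± SD (n = 3 per group). The setb MO1 arrays lie below the control arrays in every panel, and replicate 3 lies far below the other setb MO1 arrays for hspb6 (7.40) and fkbp5 (8.59).

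Of the 8 subunit genes of the cytosolic chaperonin 5 rose, by small amounts (62.5%, against 23.9% of all genes), 3 did not pass and all 8 differences were positive, with a median of 0.19. The largest was that of tcp1, at 11.10, 11.11 and 11.11 in setb MO1 embryos, against 10.61, 10.78 and 10.83 in control embryos (0.37 ± 0.07, adjusted p = 0.00627). Next was cct7, at 11.57, 11.65 and 11.54 in setb MO1 embryos, against 11.22, 11.31 and 11.32 in control embryos (0.30 ± 0.07, adjusted p = 0.00864). In both genes all setb MO1 arrays lay above all control arrays.

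The genes cct2 (0.25 ± 0.07), cct4 (0.22 ± 0.06) and cct3 (0.17 ± 0.06, adjusted p = 0.0498) rose by less. The smaller calls depended on single arrays. That on cct3 was lost in all 6 fits without 1 array (adjusted p of 0.0531 to 0.140), that on cct4 without control replicate 1 or 2 or setb MO1 replicate 1 or 2 (up to 0.0984), and that on cct2 without control replicate 2 or setb MO1 replicate 1 or 2 (up to 0.0702). Without single arrays 2 to 4 subunit genes rose. These were 2 without control replicate 2, setb MO1 replicate 1 or setb MO1 replicate 2, and 3 without control replicate 1. With a block for replicate number 3 rose, as after a repeated quantile normalization, and 2 rose at an adjusted p under 0.01. A dimmer second probe set of cct2 gave a larger difference, 0.55 ± 0.08 (adjusted p over all probe sets = 0.00178). The genes cct5 (0.15 ± 0.07), cct8 (0.03 ± 0.07) and cct6a (0.02 ± 0.06) did not pass, with 95% intervals of −0.01 to 0.31, −0.12 to 0.19 and −0.12 to 0.15. After a repeated quantile normalization cct6a was at −0.01, and without control replicate 1 cct8 was at −0.01.

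Of the 8 mitochondrial chaperone genes 4 rose (50.0%, against 23.9% of all genes), none fell and all 8 differences were positive. The HSP70 partner gene dnaja3a was at 9.85, 9.87 and 9.89 in setb MO1 embryos, against 9.34, 9.37 and 9.37 in control embryos (0.51 ± 0.06, adjusted p = 0.000543). The gene dnajc11a, whose product is tied to the cristae of the inner membrane, was at 10.33, 10.40 and 10.32 in setb MO1 embryos, against 9.73, 9.80 and 9.81 in control embryos (0.57 ± 0.06, adjusted p = 0.000519). These were among the tightest differences of the set, with groups well apart. The mitochondrial HSP70 gene hspa9 rose by 0.30 ± 0.06 (adjusted p = 0.00870) and the HSP60 gene hspd1 by 0.22 ± 0.07 (adjusted p = 0.0390). The hspd1 call was lost without setb MO1 replicate 1 or 3 and without any single control replicate (up to 0.116), as under a block for replicate number (0.0715). The paralogue dnaja3b (0.10 ± 0.08) and the import motor gene dnajc19 (0.12 ± 0.08) did not pass.

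**Figure D4:**
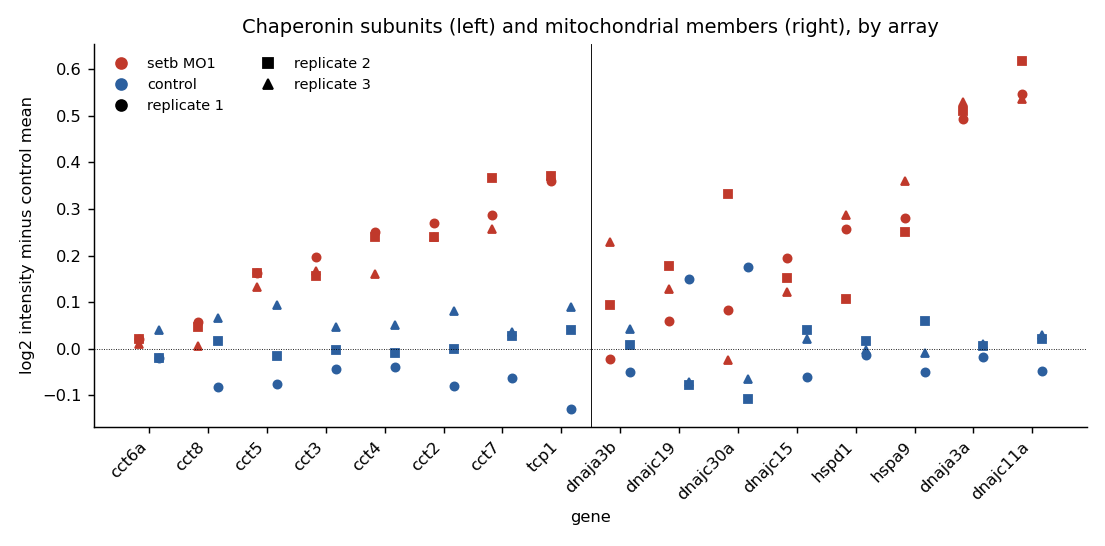
Log2 intensity of each array minus the control mean of the gene (vertical axis) for the 8 chaperonin subunits (left of the line) and the 8 mitochondrial members (right), ordered by difference (horizontal axis). Red points are setb MO1 and blue points control arrays, with marker shapes for replicates. The control arrays of tcp1 spread more widely than its setb MO1 arrays, and dnaja3a and dnajc11a lie highest, at differences of 0.51 and 0.57.

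Of the 34 ER members 12 fell in setb MO1 embryos (35.3%, against 20.8% of all genes), 3 rose (8.8%, against 23.9%) and 19 did not pass, with a median of −0.13, and between 10 and 13 fell when single arrays were left out. The lectin chaperones for glycoproteins split. The calreticulin gene calr was at 9.33, 9.42 and 9.60 in setb MO1 embryos, against 10.28, 10.31 and 10.18 in control embryos (−0.81 ± 0.09, adjusted p = 0.000473). The gene calr3a was at 11.30, 11.37 and 11.39 in setb MO1 embryos, against 11.95, 12.02 and 12.10 in control embryos (−0.67 ± 0.07, adjusted p = 0.000401), and calr3b changed by −0.42 ± 0.08 (adjusted p = 0.00435). All 3 calreticulin genes were thus lower in every setb MO1 array. The calnexin gene canx, encoding the membrane-bound counterpart, was at 12.76, 12.72 and 12.79 in setb MO1 embryos, against 12.72, 12.73 and 12.77 in control embryos. Its difference of 0.02 ± 0.06 had a 95% interval of −0.12 to 0.15.

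GRP94 and BiP, the HSP90 and HSP70 of the ER, were measured by 1 probe set each. The GRP94 gene hsp90b1 was at 10.64, 10.68 and 10.86 in setb MO1 embryos, against 11.26, 11.36 and 11.41 in control embryos (−0.62 ± 0.08, adjusted p = 0.00105). The BiP gene hspa5 was at 11.74, 11.78 and 11.89 in setb MO1 embryos, against 11.95, 11.93 and 12.12 in control embryos, without overlap, but its difference of −0.20 ± 0.08 did not pass (adjusted p = 0.0762). Of the genes for proteins that work with BiP, dnajb11, sdf2l1 and dnajc3a fell. Among all J-domain genes of the ER class, dnajb11 and dnajc3a fell and dnajc10, given below, rose. The rest did not pass, dnajc1 (−0.11 ± 0.07) among them. The gene of the J-domain protein ERdj3, dnajb11, was at 11.16, 11.23 and 11.28 in setb MO1 embryos, against 11.90, 11.75 and 11.75 in control embryos (−0.58 ± 0.07, adjusted p = 0.000807). The gene of its partner sdf2l1 was at 8.91, 9.14 and 9.03 in setb MO1 embryos, against 9.74, 9.52 and 9.59 in control embryos (−0.59 ± 0.09, adjusted p = 0.00170), while its paralogue sdf2 rose by 0.39 ± 0.07 (adjusted p = 0.00282). The gene dnajc3a, for the J-domain protein p58IPK, changed by −0.31 ± 0.07 (adjusted p = 0.00941), and its paralogue dnajc3b (−0.16 ± 0.11), the exchange factor gene hyou1 (−0.04 ± 0.09) and dnajb9b (−0.17 ± 0.10) did not pass.

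Disulfide isomerase genes also differed among themselves. The levels of pdia4 were 10.97, 10.97 and 11.13 in setb MO1 embryos, against 11.50, 11.47 and 11.50 in control embryos (−0.46 ± 0.07, adjusted p = 0.00163). Those of pdia3, whose product joins calnexin and calreticulin, were 10.73, 10.82 and 11.01 in setb MO1 embryos, against 11.34, 11.32 and 11.36 in control embryos (−0.49 ± 0.08, adjusted p = 0.00298). The gene pdia8 fell as well (−0.76 ± 0.12, adjusted p = 0.00256). In these genes, as in calr and hsp90b1, setb MO1 replicate 3 was the array nearest to the controls. The gene pdia6 was at 10.24, 10.44 and 10.85 in setb MO1 embryos, against 10.93, 10.79 and 10.83 in control embryos, so that its groups overlapped through replicate 3 and its difference of −0.34 ± 0.15 did not pass. In the opposite direction, pdia5 rose by 0.30 ± 0.07 (adjusted p = 0.00882), and dnajc10, for a J-domain protein that reduces disulfides before degradation, rose by 0.50 ± 0.07 (adjusted p = 0.00157). The gene pdia7 was at −0.01 ± 0.07.

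Among the FKBP prolyl isomerases of the ER, fkbp10a changed by −0.48 ± 0.13 (adjusted p = 0.0189), and fkbp10b was at −0.03 ± 0.06. The fkbp10a call was lost without control replicate 2 or setb MO1 replicate 2 (up to 0.0703). The gene fkbp14 changed by −0.22 ± 0.06 (adjusted p = 0.0229), and this call was lost if control replicate 2 or any setb MO1 replicate was left out (up to 0.0836), as under a block for replicate number (0.0576). The genes fkbp7, fkbp9 and fkbp11 did not pass.

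**Figure D5:**
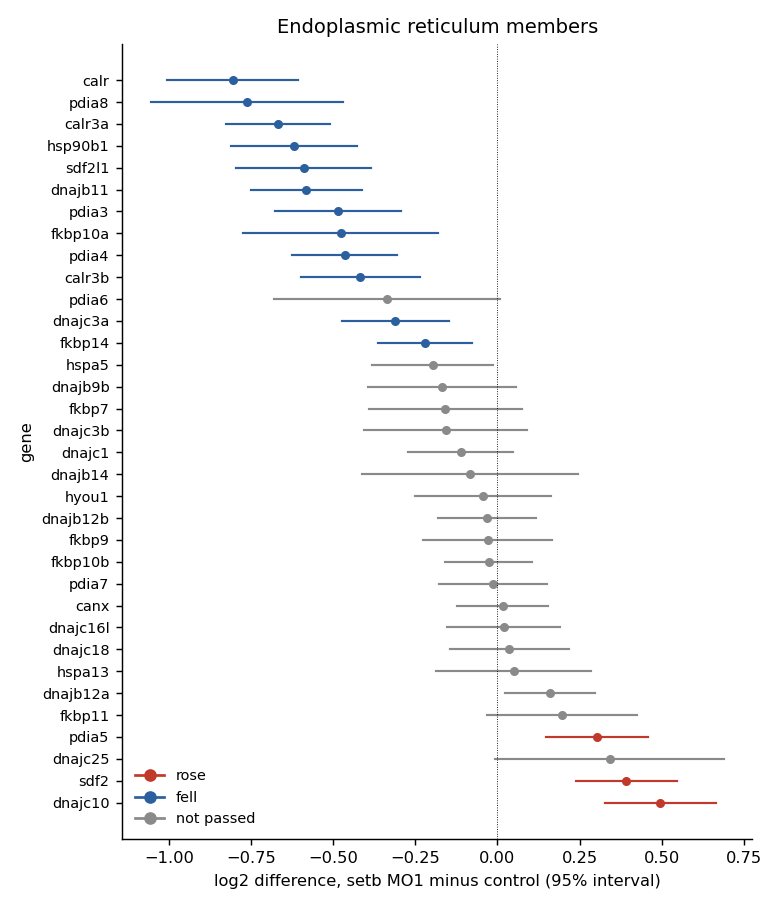
Log2 difference, setb MO1 minus control, with its 95% interval (horizontal axis) for the 34 ER members (vertical axis), from limma with n = 3 and 3. Blue marks the 12 genes that fell, from calr at −0.81 to fkbp14 at −0.22, red the 3 that rose, pdia5, sdf2 and dnajc10, and grey those that did not pass.

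Markers of secretory and other cells were set beside the ER members. Of 4 hatching gland and secretory markers measured 3 rose (75.0%, against 23.9% of all genes) and none fell (against 20.8%). Those that rose were he1.1, ctslb and klf17, and agr2 did not pass (−0.18 ± 0.08). Their summed linear intensity was 6777 to 7090 in setb MO1 and 4440 to 4639 in control arrays. Of 8 notochord and cartilage markers 2 rose (25.0%, near the 23.9% of all genes) and 1 fell (12.5%, against 20.8%). Those that rose were tbxta and shha, and no collagen gene on this list did. The marker that fell reached 8.45 in control embryos only. Sums were 10953 to 12002 in setb MO1 and 9076 to 10475 in control arrays. All 15 lens markers fell (against 20.8% of all genes), 3 of which reached 8.45 in control embryos only. Their sums were 20184 to 26286 in setb MO1 and 37253 to 44383 in control arrays. The neuronal sums are given above, and the part of any of these cell types in the ER values was not tested.

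Genes that work with the members but lie outside the rule were counted from lists. The list of heat shock factors and co-chaperones of HSP90 and HSP70 also held some chaperones, among them trap1, serpinh1a and serpinh1b. Of its 26 measured genes 7 rose (26.9%, against 23.9% of all genes) and 1 fell (3.8%, against 20.8%), with a median of 0.12. The ER chaperone gene serpinh1a was among those that rose (0.28 ± 0.08, adjusted p = 0.0215). Its call was lost without control replicate 2 or setb MO1 replicate 2 or 3, and serpinh1b (0.49 ± 0.26) did not pass. The genes with the smallest p that rose were ppp5c, a phosphatase bound to HSP90 (0.54 ± 0.07), unc45b, the myosin chaperone (0.70 ± 0.11), trap1, the mitochondrial HSP90 (0.56 ± 0.11), and smyd1b, a methyltransferase that assists myosin assembly in zebrafish muscle (0.46 ± 0.09). The levels of unc45b were 11.11, 11.10 and 11.47 in setb MO1 embryos, against 10.41, 10.58 and 10.58 in control embryos. The genes unc45b, smyd1b and hsp90aa1.1, all known from myosin folding, were thus called upward. Of 24 muscle markers 3 rose and 3 fell, 12.5% each (against 23.9% and 20.8% of all genes), with a median of 0.03. Of the myosin heavy chain genes among them, myhz1.1 (−0.34 ± 0.07) and myhz2 (−0.52 ± 0.06) fell and smyhc1 (0.08 ± 0.10) did not pass. Of the myosin light chain genes, myl10 rose (0.36 ± 0.08). The others, mylpfa (0.04 ± 0.07), mylpfb (0.02 ± 0.06), mylz3 (0.01 ± 0.06) and myl1 (0.02 ± 0.06), did not pass. The marker sums were 154046 to 160464 in setb MO1 and 154684 to 156214 in control arrays, and the part of muscle was not tested. The count of 7 was 4 without control replicate 2, setb MO1 replicate 2 or setb MO1 replicate 3.

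The transcript of the heat shock factor hsf1 did not pass (0.05 ± 0.08), nor did hsf2 (0.01 ± 0.21). The only member of the list that fell was hsf4, a factor known from the lens, at 7.60, 7.56 and 7.23 in setb MO1 embryos, against 8.74, 8.33 and 8.16 in control embryos (−0.95 ± 0.16, adjusted p = 0.00315). It reached 8.45 in control embryos only. The lens markers that moved with it are given above, and their part was not tested.

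Of 13 genes of prefoldin, which hands actin and tubulin to the chaperonin, and of its partners, 4 rose (30.8%, against 23.9% of all genes) and 2 fell (15.4%, against 20.8%). The prefoldin subunit gene pfdn2 rose by 0.48 ± 0.08 (adjusted p = 0.00212), and pdcl, a phosducin-like partner of the chaperonin, changed by −0.58 ± 0.06 (adjusted p = 0.000476). Of the smaller calls, vbp1 (0.19 ± 0.06), uri1 (0.29 ± 0.09) and pfdn6 (0.35 ± 0.11) rose and txndc9 (−0.20 ± 0.07) fell. The vbp1 call was lost in all 6 fits without 1 array (adjusted p of 0.0530 to 0.116). That on txndc9 was lost in every such fit except that without control replicate 3. The uri1 call was lost without control replicate 1 or 2 or setb MO1 replicate 2 or 3. That on pfdn6, whose groups overlapped, was lost without control replicate 2 or 3 or setb MO1 replicate 2 or 3. Without control replicate 2 or 3 or setb MO1 replicate 2 or 3 the count of 4 fell by over 1.5 times, to as few as 1. The count of 2 was 1 without control replicate 1 or 2 or any single setb MO1 replicate.

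Sensors and effectors of ER stress showed no common direction, with 4 of 19 risen and 4 fallen. These shares, 21.1% each, were near the 23.9% and 20.8% of all genes (medians of 0.07 on this list and 0.02 over all genes). The transcription factor gene atf4b changed by −0.48 ± 0.08 (adjusted p = 0.00260) and its paralogue atf4a rose by 0.27 ± 0.06 (adjusted p = 0.0126). The ATF4 targets trib3 (−0.40 ± 0.07), chac1 (−0.25 ± 0.08) and asns (0.34 ± 0.07) were also called in both directions. The ER-anchored factor genes creb3l3b (0.85 ± 0.17) and creb3l2 (0.29 ± 0.07) rose, and the sensor gene ern1, for IRE1, changed by −0.24 ± 0.06. The sensor genes atf6 (−0.03 ± 0.08) and eif2ak3 (0.16 ± 0.11) and the splicing target xbp1 (−0.11 ± 0.08) did not pass. Nor did ppp1r15a, whose difference was the largest on the list (1.04 ± 0.39, adjusted p = 0.065). Its levels were 10.97, 11.01 and 11.89 in setb MO1 embryos, against 9.42, 10.43 and 10.89 in control embryos, without overlap. With a block for replicate number ppp1r15a passed (adjusted p = 0.00469). Without control replicate 2 only 2 rose and 2 fell, and 2 fell without setb MO1 replicate 3. The calls on atf4a, creb3l2, ern1 and chac1 were lost without control replicate 2, those on ern1 and chac1 also without setb MO1 replicate 3, and that on chac1 also without control replicate 3 or setb MO1 replicate 2.

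Other ER folding factors mostly did not pass, with 1 of 21 risen (4.8%, against 23.9% of all genes) and 2 fallen (9.5%, against 20.8%). The genes that fell encode secreted or ER-resident proteins induced by ER stress, creld2 (−0.58 ± 0.07, adjusted p = 0.000773) and manf (−0.37 ± 0.09, adjusted p = 0.0112). The levels of creld2 were 9.02, 9.02 and 8.99 in setb MO1 embryos, against 9.66, 9.64 and 9.48 in control embryos, without overlap. The isomerase gene txndc5 rose by 0.24 ± 0.06, a call lost without control replicate 2 or setb MO1 replicate 2 or 3. Of 18 genes of ER-associated degradation none rose (against 23.9% of all genes) and 1 fell (5.6%, against 20.8%). That gene was derl1 (−0.27 ± 0.06, adjusted p = 0.0118), which did not pass without control replicate 2. The stress-responsive herpud1 was at 0.06 ± 0.10.

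Among the members were 13 pairs of paralogues that differ in the last letter or digit of their symbol. In 10 pairs both differences had the same sign, and in 7 pairs the calls differed. Both genes were called in 3 pairs, hsp90aa1.1 with hsp90aa1.2, calr3a with calr3b and fkbp1aa with fkbp1ab, each in 1 direction. The 1 pair with a called gene whose differences had opposite signs was dnajc5ga (−0.08 ± 0.10) with dnajc5gb (0.36 ± 0.08). Differences between paralogues were not tested.

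The replicates of both groups differed widely in some members. The SD among setb MO1 arrays exceeded 0.25 in 9 members, hspb6 (1.06), fkbp5 (0.93), hsp90aa1.2 (0.71), dnajb1b (0.53), hspb1 (0.43), pdia6 (0.31), hspbp1 (0.30), dnaja1 (0.27) and hspa12a (0.25). Among control arrays it exceeded 0.25 in hspb9 (0.65), hspb6 (0.41), hsp90aa1.2 (0.37), dnajb5 (0.36), fkbp1ab (0.31) and dnajb14 (0.30). The same held for control arrays in dnajc21 (0.29), hspbp1 (0.27), hspb11 (0.26), hspb9l (0.26) and dnajc25 (0.25). Wide spread was thus not particular to the setb MO1 group. Of the 24 members that rose, 13 were highest in setb MO1 replicate 3, 8 in replicate 2 and 3 in replicate 1. Of the 23 that fell, 15 were lowest in setb MO1 replicate 1, 3 in replicate 2 and 5 in replicate 3. In the control group, replicate 3 was the highest in 14 of the 24 members that rose and the lowest in 11 of the 23 that fell. Such counts were not made over all genes, so they cannot be called particular to the members.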

How the data were processed

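Log2 intensities of 15726 probe sets on 6 arrays were used as the authors deposited them. RMA is named for them, per the submitters' processing notes, which corrects the background, quantile normalizes the arrays and summarises probes. Its version and any filter: not given in the sources used here. Every probe set reached 8.45 in at least 1 array, from which a cut at that level was inferred. Of the members 98 reached it in both groups, 3 in setb MO1 only and 3 in control only. By that cut these 6 are in the file through 1 group. Genes were named from the platform annotation, through probe sets with 1 symbol, taking for each gene the probe set of highest mean. All 104 members matched a RefSeq gene table (GRCz12tu, used for names and gene order), which holds 141 protein-coding symbols that fit the rule. Of 10 probe sets with several symbols that include a fitting one, 3 list hsp70 genes alone.

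The test was limma's (version 3.58.1, R 4.3.3, lmFit and eBayes over all probe sets, two-sided, Benjamini-Hochberg over 11304 genes). The procedure was tested on simulated data in which 200 of 11304 genes were changed by 1.5- or 2-fold. It recovered 82% of the 1.5-fold and 90% of the 2-fold changes, and 6.01% of its calls were false. Far more genes were called in the real data, and smaller changes were not simulated, so these rates need not hold for the calls above. The members, classes and lists were chosen with earlier results of these data known. Named genes were canonical members, the up to 4 smallest p-values per class or list and direction, and called changes of at least 2-fold. Other genes were chosen after their values were seen. Alternatives covered normalization, filter, prior, probe sets, threshold, the replicate number as a block and each array left out. The deviations of same-numbered arrays correlated at 0.07, −0.36 and 0.36, not over 0.1 in every pair, so the numbers were not taken to pair them.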

Additional observations from a re-analysis of the deposited data

How the results depend on the processing

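The numbers of members that rose (24) and fell (23) stayed within 1.5 times under all alternatives but 2. At an adjusted p under 0.01, 14 rose. Among probe sets at or above the median level, which hold 62 of the members, 14 fell. Without single arrays 17 to 22 rose and 18 to 22 fell. With the replicate number as a block 24 rose and 22 fell, and of the 86 genes taken by the naming rule 8 lost their call and 1 gained one. Same-numbered arrays did not correlate best with their own number in every case. Without the genes that reached 8.45 in 1 group only, a setting chosen after seeing the data, 22 rose and 21 fell. No named gene that was called changed sign. Some named genes near 0 that were not called did, so that differences without single arrays ran from −0.0014 to 0.035 for canx, −0.0052 to 0.0672 for cct8, −0.0132 to 0.0916 for dnajb1a, −0.118 to 0.0345 for fkbp4 and −0.128 to 0.0044 for hyou1, and cct6a was at −0.0094 after repeated quantile normalization. Levels near the lowest of the arrays limit the folds of dim genes, which may be understated.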
